A study of Homo sapiens with 8 samples.

Results

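Bone morphogenetic protein (BMP) signalling was described here by 10 genes, which were taken from the table of 20323 genes by their symbols. They were the ligands BMP2 and BMP4, the receptors BMPR1A, BMPR1B and BMPR2, the target genes ID1, ID2, ID3 and ID4, and the inhibitory SMAD gene SMAD6. Each symbol matched 1 row. Messenger RNA was sequenced in H2452, an established human cell line labelled as biphasic pleural mesothelioma, a tumour form with epithelioid and sarcomatoid cells, with a wild-type genotype label. Deoxypodophyllotoxin (DPT), which binds tubulin and blocks microtubule assembly, was given at 20 nM for 48 h. The other cells received its solvent, DMSO, and all were grown in medium with fetal bovine serum. The series has 4 DPT and 4 DMSO libraries, which the series design calls biological replicates. The labels do not say whether these came from separate cultures, so p-values measure the spread between these libraries.

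BMPs are secreted dimers that bind a pair of type I receptors (such as BMPR1A and BMPR1B) and a pair of type II receptors (such as BMPR2) on the cell surface. The activated type I receptor phosphorylates SMAD1, SMAD5 and SMAD9, which enter the nucleus with SMAD4 and switch on early target genes, among them the ID genes and SMAD6. ID proteins have a helix-loop-helix domain but no basic DNA-binding region, so they bind E proteins such as TCF3 and TCF12 and keep them from DNA. SMAD6 closes a feedback loop by blocking the type I receptors and the signal SMADs. BMP ligands and ID genes are studied in mesothelioma, as in other solid tumours, for their part in growth and invasion.

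The 4 ID genes moved together across libraries, so the 250 bases before the RefSeq start of each are shown for comparison (GRCh38.p14, 5′ to 3′ on the strand of the gene). Capitals mark the letters ATTGG (the CCAAT box, CCAAT on the other strand), TATAAA (the TATA box, TTTATA on the other strand) and GGCGCC (a palindrome found in BMP-responsive elements). The ID1 window is chr20:31605039-31605288 on the plus strand, that of ID2 is chr2:8681806-8682055 on the plus strand, that of ID3 is chr1:23559502-23559751 on the minus strand and that of ID4 is chr6:19837120-19837369 on the plus strand.
ID1: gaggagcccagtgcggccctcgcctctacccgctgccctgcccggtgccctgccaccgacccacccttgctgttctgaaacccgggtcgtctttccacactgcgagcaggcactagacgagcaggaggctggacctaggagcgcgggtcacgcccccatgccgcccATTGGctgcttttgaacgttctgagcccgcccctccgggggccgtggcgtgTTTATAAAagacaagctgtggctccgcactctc
ID2: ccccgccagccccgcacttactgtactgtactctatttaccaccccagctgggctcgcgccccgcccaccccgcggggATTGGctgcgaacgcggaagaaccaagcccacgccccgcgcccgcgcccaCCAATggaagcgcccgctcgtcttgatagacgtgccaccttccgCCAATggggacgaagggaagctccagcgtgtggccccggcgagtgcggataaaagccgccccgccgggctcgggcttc
ID3: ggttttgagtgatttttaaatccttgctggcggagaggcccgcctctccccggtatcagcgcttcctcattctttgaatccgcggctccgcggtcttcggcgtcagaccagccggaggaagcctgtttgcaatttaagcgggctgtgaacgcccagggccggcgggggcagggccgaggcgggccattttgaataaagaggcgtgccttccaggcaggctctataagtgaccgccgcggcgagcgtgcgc
ID4: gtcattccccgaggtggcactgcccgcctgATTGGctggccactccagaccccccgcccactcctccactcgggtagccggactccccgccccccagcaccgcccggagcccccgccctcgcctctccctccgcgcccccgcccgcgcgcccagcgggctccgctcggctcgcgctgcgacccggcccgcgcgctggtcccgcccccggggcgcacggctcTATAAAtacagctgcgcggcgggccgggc

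The ATTGG letters began 84 bases before the start in ID1, 220 bases before it in ID4 and 172 bases before it in ID2. In ID2, CCAAT also began 122 and 78 bases before the start. The ID3 window held none of the 3 motifs. TATAAA began 31 bases before the start in ID1, where it overlaps a TTTATA that began 33 bases before it, and 29 bases before the start in ID4. GGCGCC was in none of the 4 ID windows, and it was in that of BMPR2 (147 bases before the start) and in 1 of the 3 windows of BMP4 (232 bases before it). The other motifs were not confined to ID genes. CCAAT was in windows of BMPR1B (143 and 59 bases before the start), and TTTATA was in that of BMPR1A (28 bases before it). The SMAD6 window, like that of ID3, held none of the 3 motifs. Of 35114 windows of the same length in the RefSeq table, 32.0% held ATTGG, 10.7% TATAAA and 16.4% GGCGCC on either strand. Windows were listed for 9 of the 10 genes, and BMP2 had none. The motifs were picked with the sequences in view, and a match is a description of letters.

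Library totals were 16087550 to 16524401 expected counts in DPT and 14964432 to 17205391 in DMSO. All 9 mesothelial or epithelioid and all 5 mesenchymal markers of the labelled tumour had enough counts to be tested. The summed FPKM (a level scaled by gene length and library size) of the 9 mesothelial or epithelioid markers was 1376 to 2214 in DPT and 2078 to 3026 in DMSO, and that of the 5 mesenchymal markers was 3889 to 4532 in DPT and 2726 to 3639 in DMSO. The first sum was nearly all KRT8, KRT18, KRT7 and KRT19. Of its genes, KRT18 (-0.65 on the log2 scale) and UPK3B (-1.07) fell. KRT8, KRT7, KRT19, MSLN and PDPN were lower without passing. CALB2 (0.59) and WT1 (0.21) were higher without passing (edgeR, adjusted p = 0.0555 and 0.430). Nearly all of the mesenchymal sum was VIM (vimentin), which rose by 0.46 on the log2 scale, while COL1A2 (-1.23) and FN1 (-0.41) fell, and COL1A1 (-0.93) and CDH2 (-0.26) did not pass (edgeR, adjusted p = 0.118 and 0.206). Of the leukocyte markers CD14 and CD68 passed the filter, and the summed FPKM of 4 endothelial markers was 0.690 to 2.03 in DPT and 0.268 to 1.315 in DMSO. DPT replicate 2 and DMSO replicate 3 stood apart from the other 6 libraries on the first principal component of log2 CPM (29.26 and 40.76, against -25.6 to -19.13 in the other DPT libraries and -1.302 to -1.016 in the other DMSO libraries). Results for the members are therefore given for all 8 libraries, for all 8 with a model term for these 2, and for the other 6. The 2 libraries were picked from these same values, and setting them apart narrows the spread within groups. The p-values of the fits with the term and of the 6 libraries are therefore descriptive, for every gene below. Other pathway genes are given for the 8 libraries, with the other fits where the call differed or the size moved most. In bulk RNA, fewer cells that express a gene and less of its RNA per cell cannot be told apart.

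Per unit of gene length, the members covered a wide range. ID1 had the highest mean FPKM over the 8 libraries (60.3), followed by ID3 (36.8), BMPR1A (18.4), ID2 (12.0), BMPR2 (9.35), ID4 (1.58), BMP4 (1.29), SMAD6 (1.08), BMPR1B (0.565) and BMP2 (0.263). ID1 exceeded ID3 in 8 of 8 libraries, ID3 exceeded BMPR1A in 8 of 8 and BMPR1A exceeded ID2 in 7 of 8. ID2 exceeded BMPR2 in 4 of 8, ID4 exceeded BMP4 in 3 of 8, BMP4 exceeded SMAD6 in 5 of 8 and SMAD6 exceeded BMPR1B in 5 of 8, so these neighbours did not keep their order from library to library. BMPR1B exceeded BMP2 in 8 of 8. The ratio of FPKM to CPM (counts scaled by library size and TMM factor) should be constant for a gene of fixed length. It varied 2.02-fold between libraries for BMPR1B, 1.53-fold for SMAD6, 1.52-fold for BMP4 and 1.23-fold for ID2, and at most 1.11-fold for the other members. Fold changes below are therefore from counts.

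Treatment with DPT was set against DMSO to ask which BMP pathway messages differed after 48 h with a tubulin binder. BMPR1B was higher in DPT and BMPR2 slightly lower, and no ID gene passed the test in all 8 libraries. Of the 10 members, 9 had enough counts to be tested, and of these 1 rose and 1 fell (edgeR quasi-likelihood test, adjusted p under 0.05 over all genes), where 5.68% of 12648 tested genes rose and 5.29% fell. With the term for the 2 libraries, 1 rose and 7 fell, where 16.9% of tested genes rose and 17.0% fell. In the other 6 libraries 2 of 10 were called higher and 5 lower, where 17.0% of 12697 tested genes rose and 17.1% fell. The 2 were BMPR1B and BMP2, and BMP2 passed the filter there only through the DPT libraries in which it was high. The median log2 fold change of the tested members was -0.44 in 8 libraries, -0.48 with the term and -0.42 in the 6 libraries, and that of all tested genes was between -0.00307 and -0.00159 in these fits. With library totals as the only scaling 969 of all genes rose and 523 fell, and limma on log2(FPKM + 1) gave 737 and 342, against 718 and 669 in the 8-library fit. The groups did not overlap for BMPR1B, with all DPT libraries above all DMSO libraries as in 9.50% of tested genes, or for BMP4 and BMPR2, with all DPT libraries below as in 8.73%.

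**Figure D1:**
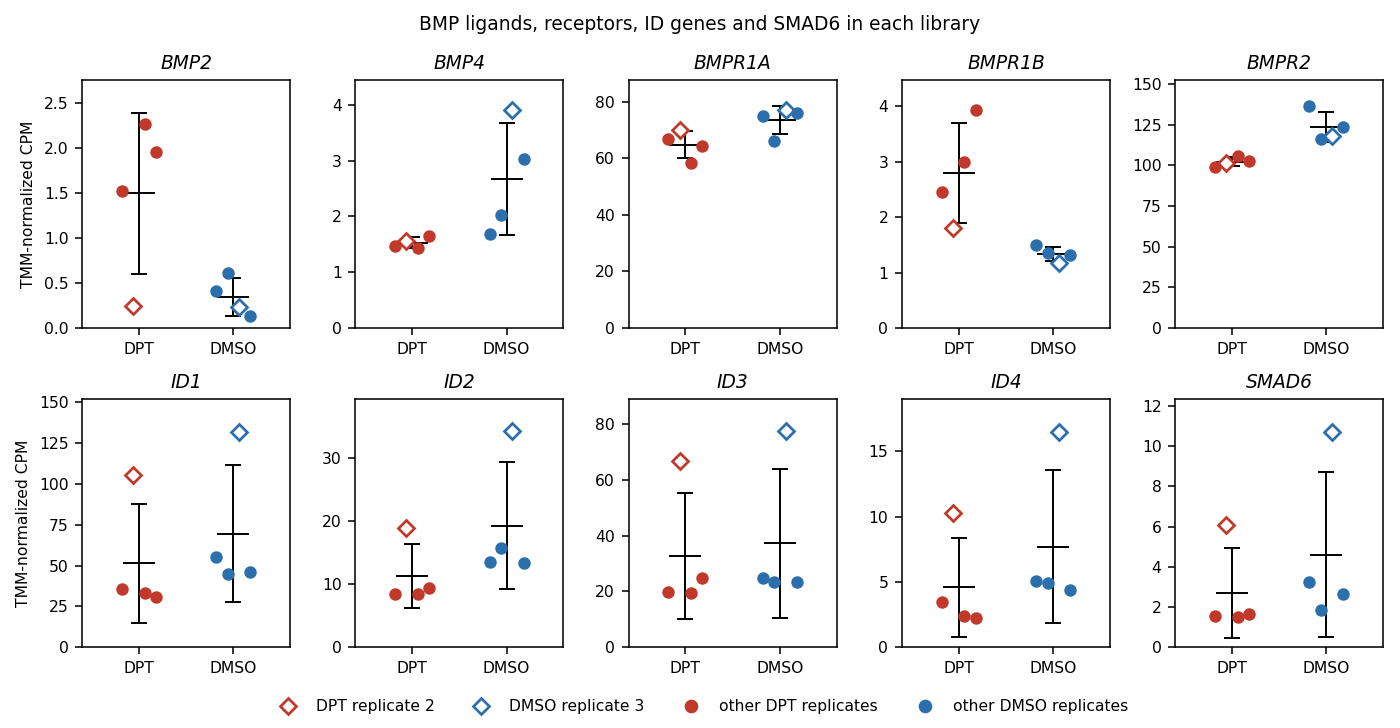
TMM-normalized CPM (y axis, linear from 0) of the 10 members in each of 4 DPT (left) and 4 DMSO (right) libraries, with the group mean and SD in black. Open diamonds are DPT replicate 2 and DMSO replicate 3, which had the highest ID1, ID2, ID3, ID4 and SMAD6 levels of their groups.

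BMP2, a ligand that also drives bone formation, lies on chromosome 20 at 6767664 to 6780280 (GRCh38, ENSG00000125845). It had 25, 4, 38 and 32 counts in DPT replicates 1 to 4, against 6, 9, 4 and 2 counts in DMSO replicates 1 to 4. In CPM these were 1.53, 0.240, 2.27 and 1.96 in DPT, against 0.406, 0.610, 0.234 and 0.132 in DMSO. DPT replicates 1, 3 and 4 were above all DMSO libraries, and DPT replicate 2 lay within the DMSO range. BMP2 did not pass the filter on low counts in 8 libraries. The mean of 1.50 ± 0.894 CPM in DPT and 0.345 ± 0.210 CPM in DMSO (SD, n = 4 each) did not pass a two-sided exact permutation test (p = 0.0857, where the smallest possible is 0.0286). Without DPT replicate 2, the DPT library with low BMP2, the exact p was 0.0286, the smallest that 3 against 4 libraries allow. That library was picked after its value was seen, so this p is a description. Leaving out any other library gave exact p-values of 0.0857 to 0.114. The 6 libraries gave an exact p of 0.1, the smallest possible there. In the 6 libraries, where BMP2 passed the filter only through its DPT libraries, its log2 fold change was 2.31 (SE 0.447, adjusted p = 0.000657), and with no filter on all 8 it was 2.10 (SE 0.640, adjusted p = 0.0775).

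BMP4, the ligand closest in sequence to BMP2, lies on chromosome 14 at 53949736 to 53958761 (ENSG00000125378). It measured 1.47, 1.56, 1.44 and 1.65 CPM in DPT replicates 1 to 4, against 1.69, 2.03, 3.91 and 3.03 CPM in DMSO replicates 1 to 4. The DPT libraries lay close together below all DMSO libraries, and DMSO replicate 3 was the highest. The log2 fold change was -0.81 (SE 0.285, 95% interval -1.45 to -0.17) and did not pass (adjusted p = 0.104). It passed with the term (-0.78, adjusted p = 0.0359) and not in the 6 libraries (-0.57, adjusted p = 0.181). These values rest on 24 to 67 counts per library.

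Among receptors, BMPR1B, a type I receptor, rose in DPT at a low level. The gene lies on chromosome 4 at 94757968 to 95158448 (ENSG00000138696). It measured 2.45, 1.80, 2.99 and 3.92 CPM in DPT replicates 1 to 4, against 1.49, 1.36, 1.17 and 1.32 CPM in DMSO replicates 1 to 4. All DPT libraries were above all DMSO libraries, and DPT replicate 2 was the lowest of its group. The group means were 2.79 ± 0.899 CPM in DPT and 1.33 ± 0.133 CPM in DMSO (SD, n = 4 each), or 1.06 on the log2 scale (SE 0.271, adjusted p = 0.0347). It was 1.04 with the term (adjusted p = 0.00567) and 1.16 in the 6 libraries (adjusted p = 0.00463).

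The BMPR1B call was kept without DPT replicate 2 (adjusted p = 0.00996) and lost when any of the other 7 libraries was left out (0.0612 to 0.104). In the deposited FPKM, the groups overlapped, with 0.680, 0.325, 0.894 and 1.16 in DPT against 0.376, 0.324, 0.276 and 0.481 in DMSO, and limma on log2(FPKM + 1) did not call it (adjusted p = 0.162).

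BMPR2, the type II receptor best known from pulmonary arterial hypertension, fell by a small amount. It lies on chromosome 2 at 202376936 to 202567751 (ENSG00000204217). It measured 99.2, 101.8, 105.7 and 102.4 CPM in DPT replicates 1 to 4, against 136.6, 116.4, 118.0 and 123.9 CPM in DMSO replicates 1 to 4. The groups did not overlap, and DPT replicate 2 and DMSO replicate 3 lay within the range of their groups. The means of 102.3 ± 2.69 CPM in DPT and 123.7 ± 9.18 CPM in DMSO (SD, n = 4 each) differed by -0.27 on the log2 scale (SE 0.0658, adjusted p = 0.0280). With the term it was -0.27 (adjusted p = 0.000692) and in the 6 libraries -0.30 (adjusted p = 0.000617). The call was lost without DPT replicates 1, 3 or 4 or DMSO replicates 1 or 4 (0.0656 to 0.0832), and by limma on log2(FPKM + 1) (adjusted p = 0.136).

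BMPR1A, a broadly expressed type I receptor mutated in juvenile polyposis, lies on chromosome 10 at 86756601 to 86932838 (ENSG00000107779). It measured 66.8, 69.9, 58.5 and 64.3 CPM in DPT replicates 1 to 4, against 75.1, 66.2, 77.3 and 76.0 CPM in DMSO replicates 1 to 4. DMSO replicate 2 lay within the DPT range. The log2 fold change of -0.18 (SE 0.0767, 95% interval -0.35 to -0.01) did not pass (adjusted p = 0.165). With the term it was -0.18 (adjusted p = 0.0243) and in the 6 libraries -0.20 (adjusted p = 0.0294). GENCODE 29 lists the processed pseudogenes BMPR1AP1 and BMPR1AP2, which have no row in the table used here. The expected counts of BMPR1A were not whole in DMSO replicates 2 and 3 (977.14 and 1324.14), and its level is uncertain where reads are shared with such copies.

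ID1, ID2, ID3, ID4 and SMAD6 shared 1 pattern: each was far higher in DPT replicate 2 and in DMSO replicate 3 than in the other libraries of the same group. In each of these 5 genes both libraries reached at least 1.5 times the highest other library of their group, as in 1.39% of all tested genes, a factor picked after the values were seen. The other 4 tested members did not. These gaps were 2.03-fold to 3.66-fold, while the 5 genes were 1.14-fold to 1.73-fold lower in DPT than in DMSO in the 8-library fit. Other values also set these 2 libraries apart within their groups. In DPT replicate 2 and DMSO replicate 3 the summed mesothelial or epithelioid markers (2214 and 3026 FPKM) and mesenchymal markers (4532 and 3639 FPKM, mostly VIM) were the highest. The first of these sums was mostly the keratins KRT8, KRT18, KRT7 and KRT19, while WT1 in CPM was the lowest of its group in both libraries. Library totals were also the highest of each group. In DPT replicate 2 this was only narrowly so (16524401 expected counts, against 16427053 in DPT replicate 3). The summed leukocyte markers (60.9 and 60.5 FPKM, mostly CD68) and summed endothelial markers (0.690 and 0.268 FPKM) were the lowest in these 2 libraries. By gene, CD68, CD14, CDH5 and KDR in CPM were the lowest of their group in both. PTPRC, ITGAM, CD3E, VWF and PECAM1 were not the lowest in at least 1 of the 2. The part of these in the result was not tested.

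ID1, the family member most closely tied to BMP signalling, lies on chromosome 20 at 31605283 to 31606515 (ENSG00000125968). It measured 35.9, 105.7, 33.4 and 30.5 CPM in DPT replicates 1 to 4, against 55.5, 44.7, 132.1 and 45.9 CPM in DMSO replicates 1 to 4. DPT replicate 2 was 2.94 times the next DPT library and DMSO replicate 3 was 2.38 times the next DMSO library. Leaving these aside, the DPT libraries were all below the DMSO libraries. The log2 fold change was -0.44 in 8 libraries (SE 0.476, 95% interval -1.50 to 0.63, adjusted p = 0.614). With the term the log2 fold change of ID1 was -0.48 (SE 0.0756, adjusted p = 0.000141) and in the 6 libraries -0.55 (adjusted p = 0.000118). These fits set aside the highest ID1 library of each group after the values were seen, which lowers the SE. Between the 2 libraries that stood apart, the log2 ratio of DPT replicate 2 to DMSO replicate 3 was -0.32.

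ID2, which also binds the retinoblastoma protein, lies on chromosome 2 at 8678845 to 8684453 (ENSG00000115738). It measured 8.38, 18.9, 8.43 and 9.31 CPM in DPT replicates 1 to 4, against 13.5, 15.7, 34.2 and 13.3 CPM in DMSO replicates 1 to 4. The highest library of each group was again DPT replicate 2 and DMSO replicate 3, at 2.03 and 2.18 times the next. The log2 fold change of -0.77 in 8 libraries did not pass (SE 0.369, 95% interval -1.60 to 0.05, adjusted p = 0.215). ID2 was called lower with the term (-0.75, adjusted p = 1.36e-05) and in the 6 libraries (-0.70, adjusted p = 0.000200). It was also called lower in the 7 libraries without DPT replicate 2 (-1.15, adjusted p = 0.0405), its highest DPT library. Without DMSO replicate 3, its highest DMSO library, it was at -0.34 and not called (adjusted p = 0.462). Both libraries were picked after the values were seen, so these 2 fits are descriptive too. The ratio of DPT replicate 2 to DMSO replicate 3 was -0.86 on the log2 scale. Exons of the antisense gene ID2-AS1 overlap ID2 on the other strand. No source used here states a strand setting, so reads of the pair may not be separated.

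ID3, which is expressed beside ID1 in many tissues, lies on chromosome 1 at 23557918 to 23559794 (ENSG00000117318). It measured 19.8, 66.6, 19.6 and 24.8 CPM in DPT replicates 1 to 4, against 24.9, 23.5, 77.4 and 23.4 CPM in DMSO replicates 1 to 4. DPT replicate 4 lay among the DMSO libraries. The log2 fold change was -0.19 in 8 libraries (SE 0.509, adjusted p = 0.853), -0.18 with the term (95% interval -0.34 to -0.01, adjusted p = 0.0885) and -0.16 in the 6 libraries (95% interval -0.37 to 0.05, adjusted p = 0.226). None of these 3 fits called ID3, and whether its change differed from that of ID1 was not tested. DPT replicate 2 was 2.68 times the next DPT library and DMSO replicate 3 was 3.11 times the next DMSO library.

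ID4, which had the lowest FPKM of the family in these cells, lies on chromosome 6 at 19837386 to 19840684 (ENSG00000172201). It measured 3.49, 10.2, 2.39 and 2.21 CPM in DPT replicates 1 to 4, against 5.08, 4.88, 16.5 and 4.42 CPM in DMSO replicates 1 to 4. As with ID1, the other 3 DPT libraries were below the other 3 DMSO libraries. Its log2 fold change was -0.76 in 8 libraries (SE 0.584, 95% interval -2.07 to 0.55, adjusted p = 0.456). It was called lower with the term (-0.78, adjusted p = 0.00129) and in the 6 libraries (-0.83, adjusted p = 0.0102).

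SMAD6, the feedback inhibitor, lies on chromosome 15 at 66702228 to 66782848 (ENSG00000137834). It measured 1.53, 6.05, 1.49 and 1.65 CPM in DPT replicates 1 to 4, against 3.25, 1.83, 10.7 and 2.64 CPM in DMSO replicates 1 to 4. DPT replicate 2 was 3.66 times the next DPT library, the widest such gap among the members, and DMSO replicate 3 was 3.29 times the next DMSO library. The log2 fold change was -0.79 in 8 libraries (SE 0.640, 95% interval -2.22 to 0.65, adjusted p = 0.483). SMAD6 passed with the term (-0.76, adjusted p = 0.0107) and not in the 6 libraries (-0.72, adjusted p = 0.0746). In DPT replicate 2 over DMSO replicate 3 the log2 ratio was -0.82. SMAD6 values rest on 25 to 183 counts per library.

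**Figure D2:**
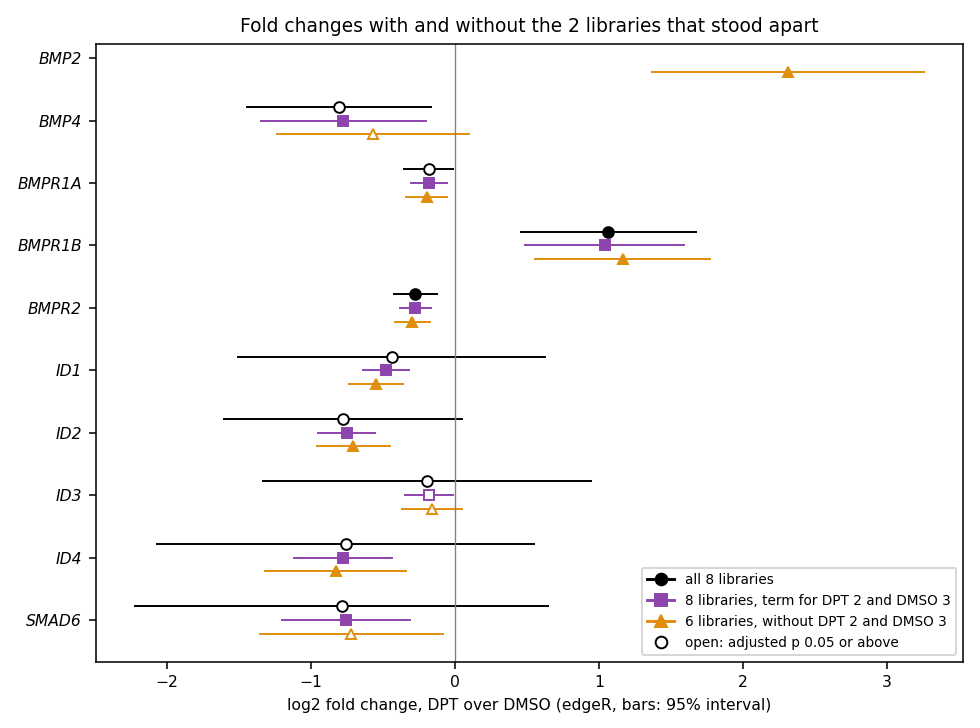
Log2 fold changes of DPT over DMSO (x axis) with 95% intervals from 3 edgeR fits, for the 10 members from top to bottom; filled symbols passed at an adjusted p under 0.05. For ID1, ID2 and ID4 the estimate stayed near its value in 8 libraries while the interval narrowed once DPT replicate 2 and DMSO replicate 3 had a term or were left out; BMP2 was tested in the 6 libraries only.

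The estimates of the ID genes and SMAD6 in 8 libraries depended on which of the 2 libraries was kept. Without DMSO replicate 3 the log2 fold change of ID1 was 0.076, that of ID3 0.45 and that of SMAD6 0.059 (adjusted p = 0.922, 0.508 and 0.954), while ID2 was at -0.34 and ID4 at -0.066 (adjusted p = 0.462 and 0.945). Without DPT replicate 2, ID1 was at -1.07, ID3 at -0.81, ID4 at -1.53 and SMAD6 at -1.57, and of these none passed (adjusted p = 0.0701, 0.221, 0.0626 and 0.0961).

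**Figure D3:**
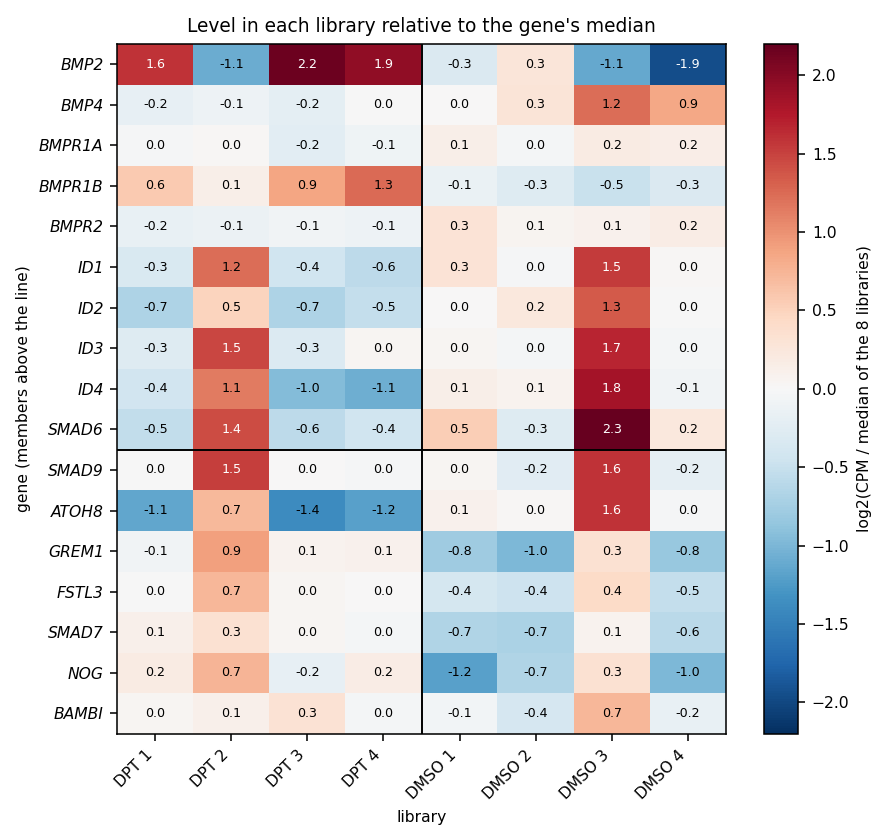
Log2 of CPM over the gene's median of the 8 libraries (colour and number) for the 10 members (above the line) and 7 other pathway genes, with DPT libraries left of DMSO libraries. The 7 genes were picked after their values were seen. DPT replicate 2 and DMSO replicate 3 are red across ID1, ID2, ID3, ID4, SMAD6, SMAD9 and ATOH8, while BMP2, on 2 to 38 counts, is low there.

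Of 58 other genes of the pathway in 6 lists, 39 were tested. In 8 libraries 7 rose (ACVR1, RGMB, SMURF2, FST, BMPER, MSX1 and JUNB) and 4 fell (GDF6, NEO1, CRIM1 and TWSG1), where 5.68% of all tested genes rose and 5.29% fell. Each of these was called in the same direction with the term and in the 6 libraries. With the term 14 rose and 7 fell, where 16.9% of all tested genes rose and 17.0% fell, and in the 6 libraries 14 rose and 8 fell, where 17.0% and 17.1% did. The median log2 fold change of the 39 genes was 0.01 in 8 libraries, 0.05 with the term and 0.07 in the 6. The calls of SMURF2, NEO1, CRIM1 and MSX1 were kept without any single library, and the other 7 were each lost without at least 2 of the 8. JUNB was lost without DPT replicates 3 or 4 (adjusted p up to 0.0543) and BMPER without DPT replicates 1 or 3 or DMSO replicates 1 or 2 (up to 0.0814). RGMB (up to 0.0685) and TWSG1 (up to 0.0760) were lost without DPT replicates 1, 3 or 4 or DMSO replicates 1 or 4, and ACVR1 (up to 0.0916) also without DMSO replicate 2. FST was lost without any library but DMSO replicate 3 (up to 0.100) and GDF6 without any but DPT replicate 2 (up to 0.118).

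Of 11 further BMP and GDF ligands 3 had no count in any library and 4 were tested, of which 0 rose and 1 fell by edgeR (0 and 1 before adjustment, 0 and 1 by DESeq2). GDF6, a ligand of joint and skull development, measured 0.122, 1.20, 0.478 and 0.0613 CPM in DPT replicates 1 to 4, against 2.78, 2.44, 3.15 and 1.19 CPM in DMSO replicates 1 to 4. DPT replicate 2 lay just above DMSO replicate 4, and the gene passed the filter through its DMSO libraries. Its log2 fold change was -2.34 (SE 0.638, adjusted p = 0.0455), and it was -2.47 with the term and -3.22 in the 6 libraries. GDF5, another joint ligand, had the highest mean FPKM of the list (7.22), above that of BMP4 and BMP2. It was called lower with the term (-0.68) and in the 6 libraries (-0.82) and not in the 8 (-0.73, adjusted p = 0.194). GDF5 was lowest of each group in DPT replicate 2 (8.09 CPM) and DMSO replicate 3 (8.76 CPM).

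Of 9 other receptors and co-receptors 6 were tested, 2 rose and 1 fell. ACVR1, the type I receptor mutated in fibrodysplasia ossificans progressiva, averaged 110.4 ± 8.94 CPM in DPT and 90.6 ± 1.50 CPM in DMSO (SD, n = 4 each, log2 fold change 0.29, adjusted p = 0.0278). RGMB, a membrane-anchored BMP co-receptor, averaged 183.1 ± 22.6 CPM in DPT and 134.8 ± 9.67 CPM in DMSO (0.44, adjusted p = 0.0203). NEO1, the neogenin receptor for RGM proteins, averaged 29.4 ± 2.45 CPM in DPT and 44.9 ± 2.48 CPM in DMSO (-0.61, adjusted p = 0.00244). Of the type I receptors tested here, BMPR1B and ACVR1 were thus called higher in the 8 libraries. BMPR1A had a log2 fold change of -0.18 without passing. The BMPR1B and ACVR1 calls were lost in edgeR with a block for replicate number (adjusted p = 0.117 and 0.105). They were also lost without most single libraries.

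Among 7 signal SMADs and ubiquitin ligases 1 rose and 0 fell by edgeR (3 and 0 before adjustment, 2 and 0 by DESeq2). SMURF2, a ligase that marks receptors and SMADs for breakdown, measured 111.4, 137.9, 124.1 and 110.9 CPM in DPT replicates 1 to 4, against 58.3, 60.3, 78.7 and 55.0 CPM in DMSO replicates 1 to 4. Every DPT library was above every DMSO library, also within the 2 that stood apart (log2 fold change 0.94, SE 0.121, adjusted p = 0.00231). SMAD7, an inhibitory SMAD, and the ligase SMURF1 were called higher only with the term (0.56 and 0.17) and in the 6 libraries (0.69 and 0.22). The signal transducers SMAD1, SMAD5 and SMAD4 had log2 fold changes of 0.09, 0.03 and -0.02 and were not called in any of the 3 fits. SMAD9, itself a BMP target, measured 4.71, 13.6, 4.78 and 4.66 CPM in DPT, against 4.88, 4.00, 14.4 and 4.15 CPM in DMSO, the library pattern of the ID genes with a log2 fold change of 0.01.

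Of 13 tested antagonists 2 rose and 2 fell in 8 libraries, and 5 rose and 3 fell with the term, beside the shares of all genes given above for these fits. CRIM1, a membrane protein that binds BMPs, averaged 459.2 ± 55.4 CPM in DPT and 749.7 ± 50.2 CPM in DMSO (SD, n = 4 each, log2 fold change -0.71, adjusted p = 0.00245). TWSG1, a BMP-binding partner of chordin, fell by 0.35 on the log2 scale (adjusted p = 0.0226). BMPER, a secreted BMP-binding protein, rose by 0.60 (adjusted p = 0.0263) and FST, the follistatin that traps activins and some BMPs, was 1.09 higher on the log2 scale (adjusted p = 0.0317). FST passed the filter through its DPT libraries (22 to 34 counts, against 9 to 16 in DMSO), and with no filter the call was lost (adjusted p = 0.0559). Of the 3 edgeR fits, noggin (NOG), gremlin (GREM1) and FSTL3 were called higher with the term and in the 6 libraries, and not in the 8. Their log2 fold changes were 0.81, 0.79 and 0.42 with the term and 0.99, 0.89 and 0.47 in the 6. CHRDL1, a chordin-like antagonist, was called lower in the same fits (-0.42 with the term and -0.54 in the 6). These 4 were named after their values were seen, as were the other genes called in those fits alone.

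Among 10 further targets and corepressors 7 were tested, and 2 rose and 0 fell by edgeR (4 and 0 before adjustment, 2 and 0 by DESeq2). MSX1, a homeobox gene switched on by BMPs in limb and tooth buds, averaged 10.2 ± 0.770 CPM in DPT and 6.61 ± 0.326 CPM in DMSO (SD, n = 4 each, log2 fold change 0.63, adjusted p = 0.00795). JUNB, an AP-1 subunit that many signals induce, averaged 74.2 ± 12.0 CPM in DPT and 49.2 ± 4.37 CPM in DMSO (0.59, adjusted p = 0.0153). ATOH8, a helix-loop-helix gene and direct SMAD target, measured 5.38, 19.4, 4.54 and 5.15 CPM in DPT, against 12.7, 12.1, 35.7 and 11.6 CPM in DMSO. Like ID1 it was highest in DPT replicate 2 and DMSO replicate 3. It was called lower with the term (-1.13, adjusted p = 7.85e-07) and in the 6 libraries (-1.27), but not in the 8 libraries (-1.07, adjusted p = 0.244). HEY1 and MSX2, transcription factor genes that BMPs induce, were called higher with the term (1.16 and 1.01) and in the 6 libraries (1.34 and 1.37), on 2 to 27 counts, and passed the filter mostly through their DPT libraries. SMAD9, GREM1, FSTL3 and ATOH8 were the 4 of the 39 other pathway genes in which both libraries reached 1.5 times the rest of their group. Of 2 tested E proteins 0 rose and 0 fell by edgeR in 8 libraries (0 and 0 before adjustment and by DESeq2). TCF3, an E protein bound by ID proteins, averaged 95.8 ± 7.06 CPM in DPT and 88.0 ± 4.99 CPM in DMSO (log2 fold change 0.12, adjusted p = 0.325). TCF12, another E protein, was called lower in the 6 libraries only (-0.14, adjusted p = 0.0242).

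**Figure D4:**
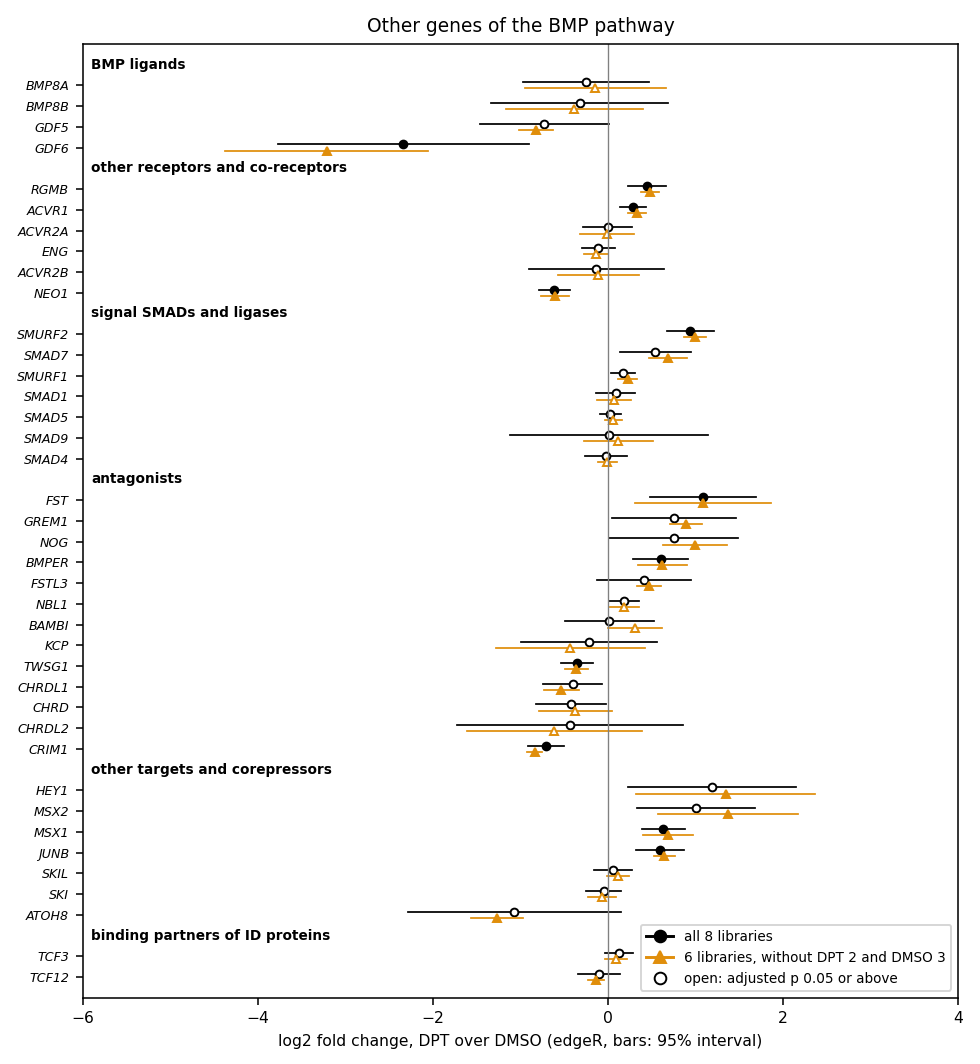
Log2 fold changes of DPT over DMSO (x axis) with 95% intervals for the 39 tested genes of the 6 lists, for all 8 libraries (black circles) and for the 6 without DPT replicate 2 and DMSO replicate 3 (orange triangles); filled symbols passed at an adjusted p under 0.05. SMURF2, RGMB and NEO1 have nearly the same estimate in both fits, and the interval of ATOH8 leaves 0 in the 6 libraries only.

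Across the 8 libraries, the genes outside the members whose log2 CPM followed ID1 most closely were CYB561A3 (Pearson r = 0.995), the protease gene BACE1 (0.990), the chemokine scavenger receptor ACKR3 (0.990), the matrix gene CCDC80 (0.990) and the mitotic kinase TTK (0.988). Each r was the highest of 12648 tested genes by choice, over libraries of which 2 stand apart. Over the other 6 the r of these genes was 0.938 to 0.983. Those closest to BMPR2 were the interferon receptor chain IFNAR2 (0.995), GMCL1 (0.976), FAM210B (0.968), FAM168A (0.967) and the cadherin CELSR2 (0.964), with 0.965 to 0.996 over the 6 libraries.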

How the data were processed

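RNA was sequenced from 4 DPT and 4 DMSO libraries of H2452 cells. Per the labels' protocols, RNA was selected with oligo(dT) and prepared with the NEBNext Ultra kit. The deposited table gives an expected count and an FPKM computed by the authors per gene and library, per the file headers. A share of 10.8% of expected counts held decimals. The tools in the submitters' processing notes were HISAT2, RSEM, DESeq2, StringTie 1.3.1 and fastp 0.18.0, with build hg38; no source used here states their roles.

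Counts were rounded and analysed with edgeR 4.0.16 in R 4.3.3: filterByExpr (minimum count 10, minimum total 15) kept 12648 genes, with TMM scaling, a quasi-likelihood test with treatment as the term, and Benjamini-Hochberg adjustment over all tested genes (called under 0.05). SE is the absolute log2 fold change over the root of F. About 15 counts equal 1 CPM in the smallest library. Alternatives were DESeq2 1.42.0, limma 3.58.1 on log2 CPM (prior count 2) or log2(FPKM + 1), RLE factors, library totals, no filter, a replicate block, a term for DPT replicate 2 and DMSO replicate 3, the other 6 libraries, and leaving out each library. The edgeR step was run on simulated data with 200 changed genes. The simulated libraries were drawn independently, so this run did not cover the deviation that DPT replicate 2 and DMSO replicate 3 share. The members and lists were chosen with earlier results of these data known. All members were named, as was every gene of the 6 lists called in the 8-library fit, the most abundant gene of a list with no call, and the 5 genes most correlated with ID1 and with BMPR2. Other genes were named after their values were seen.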

Additional observations from a re-analysis of the deposited data

Results flagged for a closer look

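Within 4 libraries of a group, the gap of the highest or lowest library to the next was set against the group's whole range for each member in CPM. Of 20 such groups 10 exceeded Dixon's 95% critical value. All 10 were the same genes in the same libraries, so they are not independent. The share of all tested genes that this rule flags was not computed, so the count is a description. In DPT replicate 2 the share of the range was 0.928 for ID1, 0.911 for ID2, 0.888 for ID3, 0.841 for ID4 and 0.965 for SMAD6. In DMSO replicate 3 it was 0.876 for ID1, 0.885 for ID2, 0.973 for ID3, 0.945 for ID4 and 0.840 for SMAD6. No other library was flagged, and neither ligand and none of the 3 receptors was.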

How the results depend on the processing

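Counts of calls changed with how DPT replicate 2 and DMSO replicate 3 were treated and with which libraries were kept. For all genes, 718 rose and 669 fell in 8 libraries, 2140 and 2156 with the term and 2158 and 2169 in the 6 libraries. limma on log2(FPKM + 1) gave 342 lower. Leaving out 1 library gave 332 to 1183 higher and 311 to 1108 lower. Of the members 1 rose and 1 fell; the term gave 7 lower, the 6 libraries 2 higher and 5 lower, limma on FPKM 0 and 0, and leaving out 1 library 0 to 2 in each direction. Of the other pathway genes 7 rose and 4 fell; the term gave 14 and 7, the 6 libraries 14 and 8, and leaving out 1 library 2 to 12 and 2 to 6. Leaving out 1 library gave log2 fold changes of -1.07 to 0.076 for ID1, -0.81 to 0.45 for ID3 and -1.57 to 0.059 for SMAD6, positive without DMSO replicate 3 and lowest without DPT replicate 2. Of the 165 comparisons of a single member's value with its alternative 134 kept direction and call, 16 lost the call, 12 gained one and 3 changed sign. The causes were not tested, and leaving out a library changes both the number of libraries and which ones are kept. Low counts limit BMP2, BMP4, BMPR1B and SMAD6.

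The replicate numbers are shared by the groups, but the labels do not say that they pair libraries, and deviations of same-numbered libraries correlated at 0.204, -0.314, -0.396 and 0.209 across genes. Those of DPT replicate 2 and DMSO replicate 3 correlated at 0.676, against at most 0.244 for any other pair of a DPT and a DMSO library. Their numbers differ, so a replicate block does not join them. A replicate block gave 171 higher and 174 lower of all genes, 0 and 0 of the members (edgeR, 1 and 2 before adjustment), and 2 and 2 of the other pathway genes.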
